A study of Homo sapiens with 120 samples.

Results

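The 78 genes for mitochondrial ribosomal proteins were followed in 120 RNA-seq libraries of U2OS cells, a human osteosarcoma line. The genes were taken by symbol, MRPL or MRPS followed by a number and at most a letter from A to C, with a mean level of at least 1 TPM (a share of all transcripts that takes their length into account) over the 120 libraries. The symbol pattern matched 78 of 57665 genes, 49 with an MRPL and 29 with an MRPS symbol. The limit on the measured mean TPM removed no gene: the lowest means were 10.9 TPM for MRPL57, 12.2 TPM for MRPL50 and 13.6 TPM for MRPS31, and no gene of the pattern lay outside the limit. The genes were thus chosen by symbol and mean level, and with earlier results of these data known.

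Cells carried Dmr-PERK, a stably expressed fusion of the kinase domain of mouse PERK with the drug-dimerizable domain DmrB, or were the Parental U2OS line without it. Dmr-PERK cells also keep their own PERK, and the sources used here do not say whether the line is 1 clone. Each line received the dimerizer AP20187 at a sub-nanomolar dose, thapsigargin (100 nM), which empties the calcium store of the endoplasmic reticulum, or sodium arsenite (0.05 mM), an oxidative stressor, for 2, 4, 8, 16 or 24 h, or was left untreated for 0, 4, 8, 16 or 24 h. Every one of the 40 groups held 3 wells, and the doses had been set to give similar phosphorylation of eIF2α. The labels do not state whether wells of a group were grown as separate cultures, and p-values therefore cover well-to-well spread, which may be technical.

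Mitochondrial ribosomes translate the few messages of the mitochondrial genome, all of them for subunits of oxidative phosphorylation complexes. Their RNAs are made inside the organelle, while every one of their proteins is encoded in the nucleus, made in the cytosol and imported. PERK is a kinase of the integrated stress response: it phosphorylates eIF2α, which lowers cytosolic protein synthesis and raises translation of the transcription factor ATF4.

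The DNA before the start site is shown for 7 of the genes, chosen because the treatments changed them most or in contrasting ways. RefSeq's promoter windows (GRCh38.p14) matched 69 of the 78 genes. The sequences are the 200 bases before the RefSeq start, 5′ to 3′ on the gene's own strand, in lower case, with capitals for a copy of a searched motif that lies wholly within the printed bases. MRPS30 (chr5:44808747-44808946, plus strand), MRPS10 (chr6:42217862-42218061, minus strand) and MRPL58 (chr17:75012470-75012669, plus strand) rose with dimerizer. MRPL18 (chr6:159789612-159789811, plus strand) and MRPS18C (chr4:83455858-83456057, plus strand) rose with arsenite, and MRPL16 (chr11:59810779-59810978, minus strand) and MRPS26 (chr20:3045852-3046051, plus strand) fell with it.
MRPS30: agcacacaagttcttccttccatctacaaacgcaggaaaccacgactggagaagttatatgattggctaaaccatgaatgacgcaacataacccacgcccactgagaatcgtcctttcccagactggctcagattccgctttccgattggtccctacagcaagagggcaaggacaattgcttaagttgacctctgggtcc
MRPS10: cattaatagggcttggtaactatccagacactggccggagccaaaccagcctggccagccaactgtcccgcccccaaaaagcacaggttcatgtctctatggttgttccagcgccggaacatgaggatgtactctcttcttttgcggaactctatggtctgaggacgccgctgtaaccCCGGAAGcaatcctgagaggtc
MRPL58: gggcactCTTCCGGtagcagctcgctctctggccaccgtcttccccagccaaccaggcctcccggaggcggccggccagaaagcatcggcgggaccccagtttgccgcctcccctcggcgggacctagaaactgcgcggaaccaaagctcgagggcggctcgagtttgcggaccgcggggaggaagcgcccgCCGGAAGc
MRPL18: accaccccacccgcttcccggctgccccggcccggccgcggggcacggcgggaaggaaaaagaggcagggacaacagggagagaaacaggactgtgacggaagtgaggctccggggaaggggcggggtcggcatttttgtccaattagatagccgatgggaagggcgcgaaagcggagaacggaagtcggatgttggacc
MRPS18C: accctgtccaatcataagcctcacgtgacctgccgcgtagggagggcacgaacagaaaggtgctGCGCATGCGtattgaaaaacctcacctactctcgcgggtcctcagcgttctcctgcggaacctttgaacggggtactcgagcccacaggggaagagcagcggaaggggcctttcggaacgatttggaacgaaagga
MRPL16: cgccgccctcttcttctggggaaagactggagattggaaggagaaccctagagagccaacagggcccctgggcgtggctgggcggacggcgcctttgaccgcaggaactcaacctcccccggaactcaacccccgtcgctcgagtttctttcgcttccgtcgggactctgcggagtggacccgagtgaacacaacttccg
MRPS26: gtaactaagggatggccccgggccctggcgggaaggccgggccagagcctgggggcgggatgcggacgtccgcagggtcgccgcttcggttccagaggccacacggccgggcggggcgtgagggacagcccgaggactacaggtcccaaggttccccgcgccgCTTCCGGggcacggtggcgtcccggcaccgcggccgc
The capitals mark the ETS-family core bound by GABP (CCGGAAG, or CTTCCGG when read from the other strand) in MRPS10, MRPL58 and MRPS26, and the NRF1 core GCGCATGCG in MRPS18C. GABP and NRF1 are known regulators of nuclear genes for mitochondrial proteins. Every search covered both strands of windows from 250 bases before to 50 bases after each start. Each matched gene counts once, by the window nearest its annotated start, while the shares over all windows count each of a gene's windows. CCGGAAG was in 42% of the 69 matched genes and in 10.3% of all 35116 windows. The YY1 core AAGATGGCG was in 18.8% of the genes and 1.75% of all windows, and GCGCATGCG was in 4.35% of the genes and 1.92% of all windows. The core of ATF4 and C/EBP composite sites, TGATGNAA, was in 1 gene, MRPL55 (1.45%), and 3.62% of all windows, and the cyclic AMP response element TGACGTCA was in none of the genes and 1.85% of all windows. Of the paired heat shock element units searched, GAANNTTC was in 8.7% of the genes and 6.77% of all windows, and TTCNNGAA was in 11.6% of the genes and 7.74% of all windows. MRPL18 held GAANNTTC 15 bases after its start, and MRPS30 held AAGATGGCG 14 bases after its start. These matches describe letters in a window and say nothing about binding.

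Libraries held 12900000 to 56500000 estimated counts (median 22300000), and the 78 genes took 0.28% to 0.5% of them. All 78 genes passed the filter on low counts, and the lowest rounded count of any of them in any library was 24. EIF2AK3, the human PERK gene, had a median of 1466 TPM in untreated Dmr-PERK cells (1204 to 1687, n = 15), against 13.5 TPM in untreated Parental cells (8.9 to 20.9, n = 15). FKBP1A, the source of the DmrB domain, had 3730 TPM (3186 to 4293) in untreated Dmr-PERK cells, against 298 TPM (282 to 337) in untreated Parental cells. How far reads of the construct were counted under EIF2AK3 and FKBP1A was not tested. Their values in Dmr-PERK cells therefore need not be levels of the cells' own genes. The 6 genes taken as a check of the integrated stress response, among them DDIT3, TRIB3 and ASNS, rose with dimerizer, thapsigargin and arsenite in Dmr-PERK cells, while none was called with dimerizer in Parental cells. SPARC, VIM and COL1A1 of the mesenchymal and osteoblast lineage averaged 1255, 1850 and 577 TPM, while the osteoblast genes SP7 and IBSP had untreated medians at the floor of the table (0.063122 TPM) and means of 0.074 and 0.067 TPM. The summed level of the osteoblast lineage markers had a median of 3362 TPM with dimerizer, 2804 TPM with thapsigargin and 3080 TPM with arsenite in Dmr-PERK cells, against 4364 TPM in untreated wells (n = 15 each). In Parental cells it was 4760 TPM with dimerizer, 3175 TPM with thapsigargin and 3426 TPM with arsenite, against 4753 TPM in untreated wells. Epithelial markers summed to medians of 727, 704 and 643 TPM with dimerizer, thapsigargin and arsenite in Dmr-PERK cells, against 823 TPM in untreated wells, and to 663, 630 and 642 TPM in Parental cells, against 672 TPM in untreated wells. Nearly all of it came from KRT8 and KRT18, while ESRP1, with an untreated Dmr-PERK median at the floor, was called higher with each treatment in Dmr-PERK cells. Blood markers summed to at most 42.0 TPM, in arsenite wells. The part of these markers in the results was not tested. By the correlation with its own group (limit 0.99), 1 library stood apart, replicate 3 of Parental cells with arsenite at 24 h. Replicate 3 of Dmr-PERK cells with arsenite at 4 h passed that limit and was singled out after its values were seen. In Parental cells at 24 h the summed level of the 78 genes was 5472 TPM in replicate 3, against 4318 and 4333 TPM in the others, and in Dmr-PERK cells at 4 h it was 5804 TPM in replicate 3, against 5319 and 5291 TPM. The RNAs of the mitochondrial genome made up 4.14% of counts in the first of these libraries, against 6.51% and 6.61% in its group, and 2.72% in the second, against 4.72% and 4.56%.

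The genes differed widely in level. MRPS24 (245.6 TPM), MRPL51 (238.1 TPM) and MRPL33 (231.1 TPM) had the highest means over the 120 libraries. MRPL57, MRPL50 and MRPS31 had the lowest. The summed level in untreated Dmr-PERK cells was highest at 16 h, with 5908 ± 46 TPM at 0 h, 6039 ± 68 at 4 h, 6679 ± 41 at 8 h, 6979 ± 54 at 16 h and 6401 ± 118 at 24 h (SD, n = 3 each), so each treatment was set against untreated wells of its own time. The 2 h treatments had no untreated wells of that time and were set against 0 h. TPM and scaled counts are relative to the other RNAs of a library, so a fall cannot be told apart from a rise of other RNAs. In these bulk samples, a change in some of the cells and a smaller change in all of them cannot be told apart either.

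**Figure D1:**
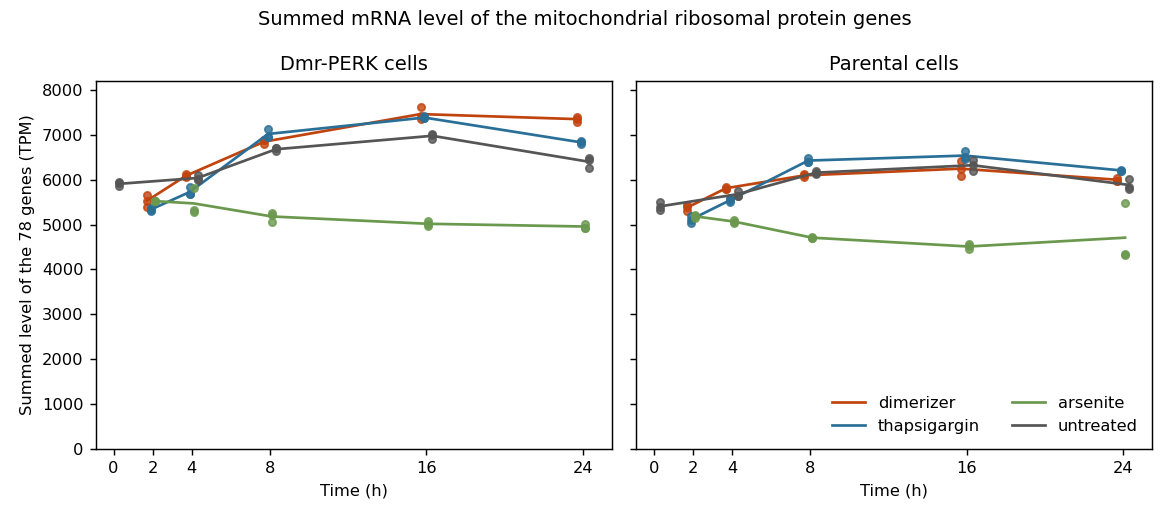
Summed level of the 78 mitochondrial ribosomal protein genes (TPM, linear axis from 0) against time (h) in Dmr-PERK cells (left) and Parental cells (right); points are single libraries and lines join the means of 3. At 24 h the Dmr-PERK wells with dimerizer sit at 7351 ± 53 TPM and those with arsenite at 4956 ± 48 TPM, on either side of the untreated wells at 6401 ± 118 TPM.

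In the cells with the construct the dimerizer raised more of these genes than it lowered, and late. In Dmr-PERK cells, averaged over 4, 8, 16 and 24 h, 42 of the 78 genes rose and 14 fell, where 27.5% of all 26998 genes tested rose and 27.7% fell. The changes were small. The median log2 fold change of the 78 genes was 0.09, against -0.03 for all genes, and only MRPS30 passed 1.5-fold. Fold changes here and below are log2 ratios of TMM-scaled counts ± SE, called at an adjusted p under 0.05 by edgeR's quasi-likelihood test with Benjamini-Hochberg adjustment over all genes tested. The 3 treatments of a line share their untreated wells.

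Lower calls came first and higher calls later. At 2 h 0 of the 78 genes were higher (8.53% of all genes) and 33 were lower (9.13%), with a median log2 fold change of -0.16. DESeq2 also called 0 higher. By edgeR's test 53 of the genes had an unadjusted p under 0.05 in either direction, against 7282 of all 26998 genes. On log2(TPM + 1) 15 genes were lower at 2 h, and 9 with no filter on low values. At 4 h, 10 were higher (15.5% of all genes) and 20 lower (14.6%). At 8 h, 15 were higher (19.9%) and 11 lower (17.1%). At 16 h, 36 were higher (22.5%) and 7 lower (20.6%), and at 24 h, 56 were higher (25%) and 3 lower (23.1%), with a median of 0.30. The effect changed with time in 59 of the 78 genes (42.1% of all genes) by an F-test of its differences between times. The 4 h and 8 h splits moved with the scaling: 4 h gave 13 higher and 16 lower with library totals alone and 16 higher and 8 lower on log2(TPM + 1), and 8 h gave 13 and 15 with RLE factors and 22 and 6 on log2(TPM + 1). Set against untreated wells of 4 h in place of 0 h, 59 genes were called at 2 h. The early counts also rested on single replicates: without replicate 1, 2 or 3 of every group, 20, 7 and 31 genes were called at 2 h and 16, 11 and 27 at 4 h, and without replicate 2 the effect changed with time in 38 genes.

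**Figure D2:**
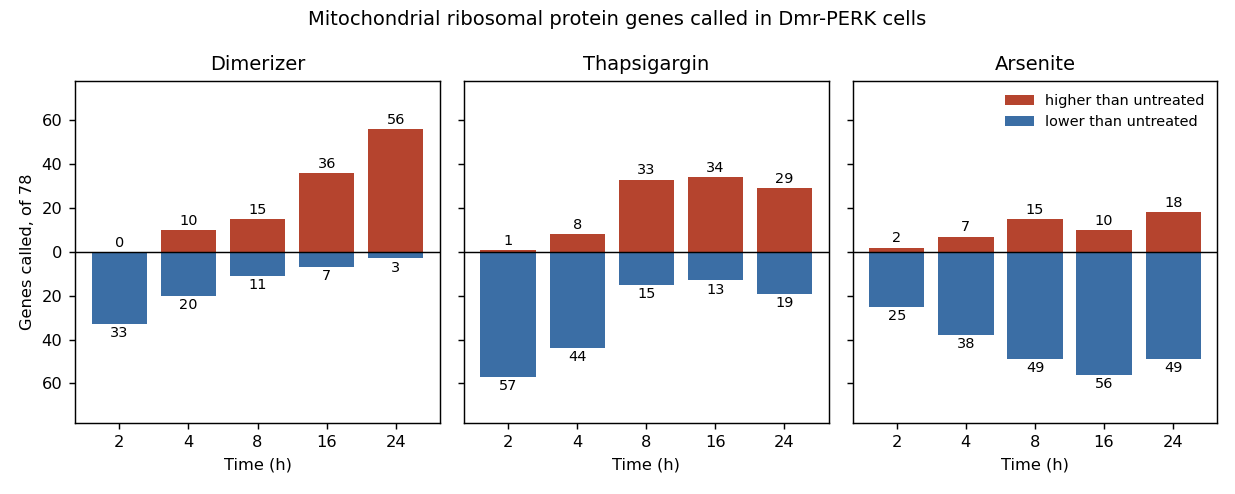
Number of the 78 genes called higher (bars above 0) and lower (bars below 0) than untreated Dmr-PERK cells by edgeR's quasi-likelihood test at each time (h), for dimerizer, thapsigargin and arsenite. Dimerizer passes from 0 higher and 33 lower at 2 h to 56 higher and 3 lower at 24 h, and arsenite keeps more genes lower than higher at each time.

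MRPS30 rose most. It is named after the small subunit but sits in the large one, and it is found in mitochondria but not in bacteria. At 4 h it had 66.9, 62.6 and 65.2 TPM with dimerizer, against 42.0, 42.8 and 49.3 TPM in untreated wells, and at 24 h it had 72.8, 64.8 and 65.8 TPM, against 42.7, 37.2 and 40.8 TPM. The groups did not overlap at either time. Its log2 fold change was 0.59 ± 0.02 on average (adjusted p = 6.2e-44), and it already stood at 0.45 ± 0.04 at 4 h. MRPS10, of the head of the small subunit, rose more gradually. It had 64.1, 64.2 and 61.9 TPM with dimerizer at 24 h, against 36.9, 35.7 and 38.5 TPM in untreated wells, with no overlap. Its log2 fold changes were -0.06 at 2 h (not called), 0.14 at 4 h, 0.41 at 8 h, 0.61 at 16 h and 0.86 at 24 h, and 0.51 ± 0.02 on average (adjusted p = 1.7e-42).

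MRPL58, also called ICT1, is a peptidyl-tRNA hydrolase that frees stalled mitochondrial ribosomes and is also a part of the large subunit. At 24 h it had 75.0, 70.5 and 76.1 TPM with dimerizer, against 45.0, 44.1 and 43.5 TPM in untreated wells. The groups stood apart, and its average log2 fold change was 0.51 ± 0.03 (adjusted p = 3.7e-28). MRPL2, a core protein near the catalytic centre, had 117.6, 118.6 and 123.1 TPM with dimerizer at 24 h, against 79.6, 76.1 and 80.8 TPM in untreated wells. It too showed no overlap, with 0.50 ± 0.03 on average (adjusted p = 2e-33).

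Others followed the pattern of an early fall and a late rise. MRPL24, which lies by the exit tunnel for the new chain, stood at a log2 fold change of -0.21 at 2 h and at 0.83 at 24 h, both called. MRPL3, a core protein of the large subunit, stood at -0.31 at 2 h and at 0.71 at 24 h, also both called. MRPL3, MRPS10 and MRPL24 had the clearest change of the dimerizer effect over time (F-test, adjusted p = 4e-23, 3.9e-20 and 3e-17). MRPL12, of the stalk that recruits translation factors, stood at -0.35 at 2 h and 0.37 at 24 h. MRPS35 of the small subunit (0.43 ± 0.03) and MRPL15 of the large subunit (0.40 ± 0.03, adjusted p = 2.1e-27) rose on average.

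MRPS6 fell most with dimerizer. It belongs to the platform of the small subunit. It had 49.2, 53.2 and 56.5 TPM with dimerizer at 24 h, against 75.8, 72.8 and 69.7 TPM in untreated wells, without overlap. Its average log2 fold change was -0.42 ± 0.03 (adjusted p = 2.2e-20). MRPL33, a small protein near the tRNA exit site, had 183.8, 191.7 and 199.3 TPM with dimerizer at 24 h, against 253.9, 272.7 and 268.4 TPM in untreated wells. The dimerizer wells were all lower at 24 h, but at 4 h the groups overlapped, at 263.2, 255.8 and 264.5 TPM with dimerizer, against 262.0, 266.9 and 266.8 TPM. The average log2 fold change of MRPL33 was -0.22 ± 0.03 (adjusted p = 7.1e-09). MRPL23, by the exit tunnel, fell by 0.22 on average on the log2 scale (adjusted p = 4.9e-07), with its lowest value at 4 h (-0.35 ± 0.08). MRPL16, a core protein by the bound tRNAs, fell by 0.19 (adjusted p = 5.1e-06). MRPS34, a small-subunit protein found in mitochondria only, fell at 2, 4, 8 and 16 h, to -0.43 ± 0.07 at 16 h, and stood at 0.01 ± 0.07 at 24 h. Between the members that rose and fell lay 22 that were not called, among them MRPS12 of the decoding centre (0.01 ± 0.04, adjusted p = 0.85).

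**Figure D3:**
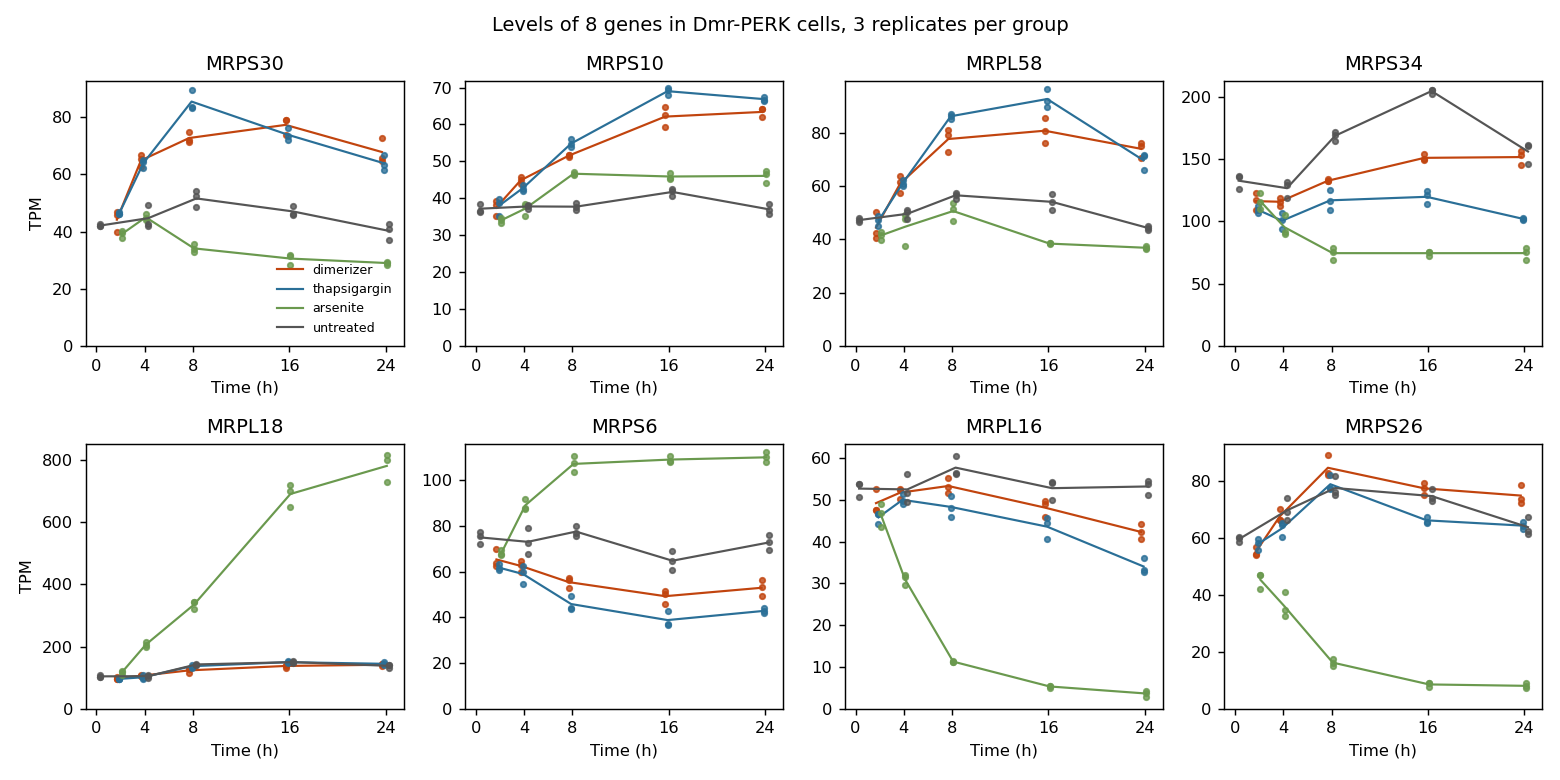
Levels (TPM, axes from 0) of 8 genes against time (h) in Dmr-PERK cells with dimerizer, thapsigargin or arsenite and in untreated wells; points are single libraries and lines join the means of 3. MRPS30, MRPS10 and MRPL58 lie above the untreated wells with dimerizer and thapsigargin at 24 h, MRPS6 lies below them with both and above them with arsenite, MRPL18 climbs to 728.2 to 816.4 TPM with arsenite, and MRPL16 and MRPS26 drop to 2.92 to 8.98 TPM with it at 24 h.

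With thapsigargin, which acts through the endoplasmic reticulum, lower calls again came first. Averaged over 4 to 24 h in Dmr-PERK cells, 36 genes rose (30.9% of all genes) and 30 fell (32.2%), with a median log2 fold change of 0.04, against 0.00 for all genes. At 2 h, 1 gene was higher (18.2%), MRPS31 at 0.31 ± 0.09, and 57 were lower (15%), with a median of -0.21. On log2(TPM + 1) 4 were higher and 31 lower at 2 h, and with no filter on low values 2 and 27. At 4 h, 8 were higher (19.7%) and 44 lower (19.9%), which became 13 and 20 on log2(TPM + 1). At 8 h, 33 were higher (25.6%) and 15 lower (23.8%), at 16 h 34 were higher (25.3%) and 13 lower (26.2%), and at 24 h 29 were higher (27.5%) and 19 lower (27.5%). The effect changed with time in 63 genes (52.2% of all genes), with the smallest adjusted p for MRPS10 (2.5e-23), MRPL3 (1.1e-20) and MRPL24 (8.9e-20).

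The genes with the largest rises were MRPL2, MRPS30, MRPL58 and MRPS10. MRPL2 had 122.1, 119.8 and 120.6 TPM with thapsigargin at 24 h, against 79.6, 76.1 and 80.8 TPM in untreated wells, and an average log2 fold change of 0.59 ± 0.03 (adjusted p = 3.7e-40). MRPS10 had 67.6, 66.3 and 66.7 TPM with thapsigargin at 24 h, against 36.9, 35.7 and 38.5 TPM. Neither gene's groups overlapped. The averages were 0.59 ± 0.02 for MRPS30 (adjusted p = 3e-44), 0.53 ± 0.03 for MRPL58 (adjusted p = 6.9e-30) and 0.52 ± 0.02 for MRPS10 (adjusted p = 1.6e-44). MRPL52, a large-subunit protein found in mitochondria only, was lower at first and then higher: its log2 fold changes were -0.40 at 2 h and -0.32 at 4 h, and 0.18, 0.67 and 0.66 at 8, 16 and 24 h. At 24 h it had 314.3, 289.6 and 285.6 TPM with thapsigargin, against 174.0, 174.0 and 182.8 TPM in untreated wells, far apart from each other.

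MRPS6 had 43.9, 41.8 and 42.8 TPM with thapsigargin at 24 h, against 75.8, 72.8 and 69.7 TPM in untreated wells, and fell by 0.71 on average on the log2 scale (adjusted p = 2.4e-35). MRPS34 had 102.3, 101.3 and 102.2 TPM with thapsigargin at 24 h, against 160.9, 146.2 and 160.7 TPM, and fell by 0.63 (adjusted p = 7.9e-30). All thapsigargin wells of both genes lay below all untreated wells. MRPL34, a small core protein of the large subunit, fell by 0.46 (adjusted p = 8e-16), although its wells overlapped at 24 h, with 44.8, 42.6 and 41.3 TPM with thapsigargin, against 46.3, 40.5 and 48.8 TPM. MRPL16 had 36.1, 33.3 and 32.8 TPM with thapsigargin at 24 h, against 53.9, 51.2 and 54.6 TPM, without overlap, and fell by 0.43 on average (adjusted p = 1.1e-18). MRPL51 (-0.41 ± 0.03) and MRPL33 (-0.39 ± 0.03), both among the most abundant of the genes, also fell.

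Arsenite lowered most of these genes and raised a few strongly. In Dmr-PERK cells, averaged over 4 to 24 h, 17 genes rose (44.4% of all genes) and 53 fell (39.2%). The split depended on the scaling: it was 25 higher and 46 lower with RLE factors, and 8 higher and 65 lower with library totals alone and on log2(TPM + 1). The median log2 fold change of all genes moved too, at 0.12 with TMM, 0.22 with RLE, -0.07 with library totals and -0.26 on log2(TPM + 1). Relative to that shift, the median of the 78 genes lay lower by -0.47, -0.47, -0.47 and -0.29. MRPL1, MRPL13, MRPL28, MRPL48, MRPL53 and MRPS18A were called higher with TMM but had a negative log2 fold change under at least 1 of the other 3 scalings, while the other 11 higher and all 53 lower calls kept their sign under each of them. 5 genes fell at least 2-fold and 1 rose at least 2-fold.

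The fall built up over the first 16 h. At 2 h, 2 genes were higher (10.5% of all genes) and 25 lower (9.46%), and against untreated wells of 4 h 44 were called, while leaving out replicate 1, 2 or 3 of every group gave 10, 7 and 24. At 4 h, 7 were higher (24.4%) and 38 lower (24.7%), which was 3 and 58 with library totals alone, and 5 and 46 without Parental arsenite 24 h replicate 3, which stood apart, and Dmr-PERK arsenite 4 h replicate 3, singled out after its values were seen. At 8 h, 15 were higher (36.2%) and 49 lower (31.2%), which was 7 and 59 on log2(TPM + 1). At 16 h, 10 were higher (42.5%) and 56 lower (36.3%), with a median of -0.56, and the split was 17 and 46 with RLE factors. At 24 h, 18 were higher (43.3%) and 49 lower (38.2%), with 29 and 40 under RLE factors, 10 and 59 with library totals and 10 and 64 on log2(TPM + 1). The effect changed with time in 71 genes (71.2% of all genes), with the smallest adjusted p for MRPL18 (1.5e-44), MRPL16 (7.6e-35) and MRPL49 (1.4e-30).

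MRPL18 rose most. It belongs to the central protuberance of the large subunit, and a shorter form of it that stays in the cytosol has been described in heat-shocked cells. At 4 h it had 199.6, 203.7 and 215.7 TPM with arsenite, against 98.5, 109.4 and 107.0 TPM in untreated wells. At 24 h it had 816.4, 728.2 and 799.1 TPM, against 140.7, 131.6 and 141.7 TPM. The arsenite wells were above all untreated wells at both times and moved further away. Its log2 fold changes were 0.15 at 2 h, 0.95 at 4 h, 1.26 at 8 h, 2.22 at 16 h and 2.66 at 24 h, and 1.77 ± 0.02 on average (adjusted p = 3.4e-82), a 3.41-fold rise. The files count genes, so the cytosolic and mitochondrial forms of MRPL18 are not told apart here.

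MRPS6, lower with the other treatments, was higher with arsenite: it had 107.8, 110.1 and 112.2 TPM at 24 h, against 75.8, 72.8 and 69.7 TPM in untreated wells, with no overlap. Its average log2 fold change was 0.76 ± 0.03 (adjusted p = 3.3e-41). MRPL45, which anchors the ribosome at the inner membrane, had 68.1, 66.6 and 69.7 TPM with arsenite at 24 h, against 41.4, 41.1 and 43.5 TPM. It rose by 0.55 ± 0.03 (adjusted p = 1.7e-35), most of it after 8 h. MRPL47, by the exit tunnel, had 110.3, 127.6 and 117.5 TPM with arsenite at 24 h, against 73.7, 73.1 and 80.8 TPM, and an average of 0.47 ± 0.03 (adjusted p = 3.4e-32). MRPS18C, of the small subunit, had 113.4, 128.9 and 135.4 TPM with arsenite at 24 h, against 82.5, 77.99 and 88.7 TPM, and an average of 0.56 ± 0.03. None of these 3 genes had overlapping groups at 24 h.

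MRPL16 fell most. It had 31.5, 32.0 and 29.5 TPM with arsenite at 4 h, against 49.5, 56.2 and 51.7 TPM in untreated wells, and 3.81, 4.24 and 2.92 TPM at 24 h, against 53.9, 51.2 and 54.6 TPM. The distance between the groups grew at every time: the log2 fold changes were -0.20 (not called), -0.72, -2.17, -3.03 and -3.55 from 2 to 24 h. The average was -2.37 ± 0.05 (adjusted p = 1.1e-65), a 5.16-fold fall. MRPS26, a small-subunit protein found in mitochondria only, had 8.98, 7.22 and 7.96 TPM with arsenite at 24 h, against 67.2, 62.5 and 61.4 TPM, with an average of -2.09 ± 0.04 (adjusted p = 5.9e-65). MRPL34 had 11.48, 6.45 and 8.87 TPM with arsenite at 24 h, against 46.3, 40.5 and 48.8 TPM, with an average of -1.91 ± 0.06 (adjusted p = 2.5e-52). MRPL17, by the exit tunnel, had 11.03, 11.2 and 10.5 TPM at 24 h, against 73.3, 61.7 and 66.8 TPM, with an average of -1.47 ± 0.04 (adjusted p = 5.5e-58). Every arsenite well of these genes at 24 h was far below every untreated well. MRPL57, the least abundant of the 78, fell by 1.29 on the log2 scale.

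**Figure D4:**
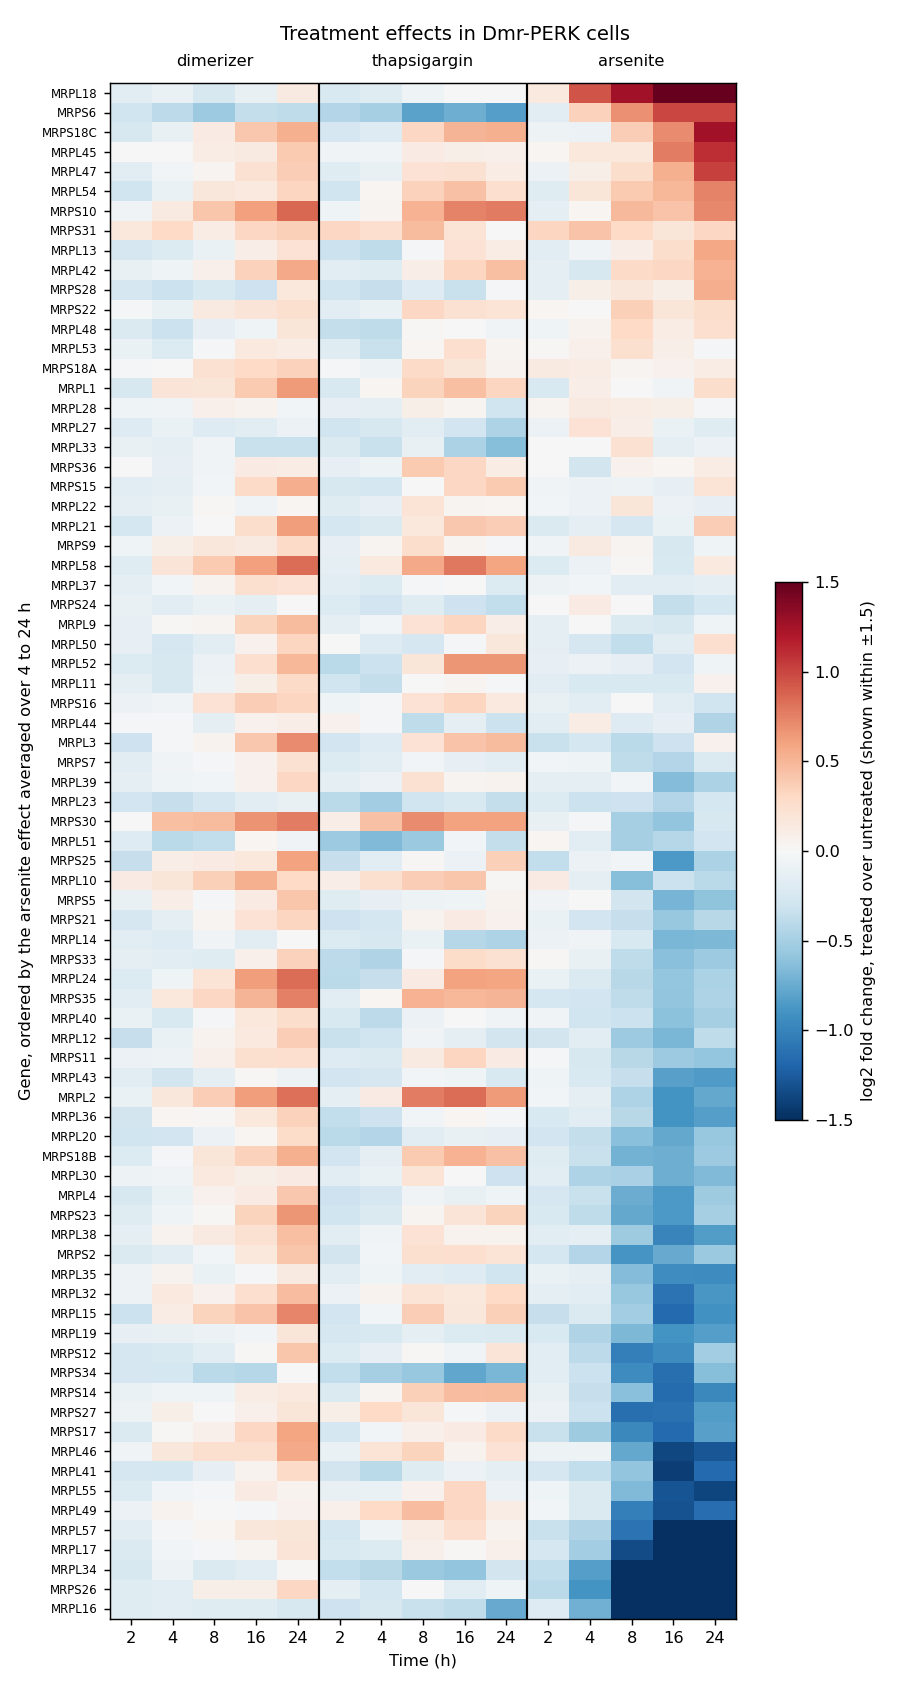
Log2 fold change of treated over untreated Dmr-PERK cells (TMM-scaled counts, colours shown within ±1.5) for the 78 genes (one line each, ordered by the arsenite average) at 2 to 24 h of dimerizer, thapsigargin and arsenite. Arsenite covers the widest range, with MRPL18 at the top (1.77 on average) and MRPL16 at the bottom (-2.37), while the dimerizer averages stay between -0.42 and 0.59.

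In Parental cells, which lack the construct, the dimerizer had little effect on these genes. Averaged over 4 to 24 h, by edgeR's quasi-likelihood test 0 were called higher (0.326% of all genes) and 0 lower (0.256%), by DESeq2 and limma 0 as well. By edgeR's test 2 had an unadjusted p under 0.05, MRPS31 and MRPS27, against 2464 of all 26998 genes. At 4 h alone 3 genes were higher (3.78%) and 0 lower (3.73%) by edgeR's test. The 3 called were MRPL18 (0.23 ± 0.05, adjusted p = 0.0016), MRPL44 (0.20 ± 0.07, adjusted p = 0.041) and MRPS5 of the small subunit (0.14 ± 0.04, adjusted p = 0.018). An unadjusted p under 0.05 was found for 8 of the 78 genes and for 4866 of all 26998 genes. MRPS30 had 46.1, 40.5 and 45.1 TPM with dimerizer at 24 h, against 44.0, 45.8 and 41.8 TPM in untreated Parental wells, and the groups overlapped. The difference between the lines was called for 46 genes: the dimerizer effect was higher in Dmr-PERK than in Parental cells in 36 (23.7% of all genes) and lower in 10 (23.2%). It was highest for MRPL58 (0.56, adjusted p = 1.7e-21), MRPS30 (0.55, adjusted p = 5.5e-30) and MRPS10 (0.51, adjusted p = 5.3e-31). It was lowest for MRPS6 (-0.40, adjusted p = 1.9e-12), MRPS34 (-0.24, adjusted p = 4.1e-05) and MRPL33 (-0.23, adjusted p = 3.9e-06).

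Thapsigargin changed most of these genes in Parental cells as well. In Parental cells 42 genes rose (30.1% of all genes) and 25 fell (35%), with a median of 0.09, against -0.06 for all genes. Of the 36 higher calls in Dmr-PERK cells, 36 were also higher in Parental cells, out of 42 there, and of the 30 lower calls 23 were also lower, out of 25 there. No gene was called in opposite directions. The same overlap was not counted over all genes, of which 30.9% rose and 32.2% fell with thapsigargin in Dmr-PERK cells. MRPL2 (0.61, adjusted p = 1.9e-42), MRPS30 (0.61, adjusted p = 2.2e-46) and MRPS36 (0.53, adjusted p = 9.7e-22) led the rises, and MRPS6 (-0.64, adjusted p = 2.1e-31), MRPS34 (-0.52, adjusted p = 5.5e-24) and MRPL34 (-0.45, adjusted p = 2.1e-15) led the falls.

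The difference of the thapsigargin effect between the lines was called for 12 genes, higher in Dmr-PERK cells in 2 (11.3% of all genes) and lower in 10 (14.4%). The count moved when 1 arsenite library was left out of the fit, and why was not tested: without Parental arsenite 24 h replicate 3 it was 5 and 16, and it was 7 and 6 with library totals alone and 6 and 5 on log2(TPM + 1). MRPS36 showed the widest gap (-0.35, adjusted p = 6.2e-07). Despite its symbol, its product is a part of the 2-oxoglutarate dehydrogenase complex. It had 52.0, 44.6 and 40.6 TPM with thapsigargin at 24 h, against 40.4, 46.6 and 50.3 TPM, in Dmr-PERK cells, where the groups overlapped. It had 46.8, 44.0 and 50.8 TPM with thapsigargin, against 29.8, 30.9 and 37.0 TPM, in Parental cells, where they did not. MRPS31 (-0.26, adjusted p = 0.00056) and MRPS21 (-0.17, adjusted p = 0.00032), both of the small subunit, were also lower in Dmr-PERK cells, and MRPL49 (0.10, adjusted p = 0.0064) and MRPS10 (0.08, adjusted p = 0.029) were higher.

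Arsenite in Parental cells raised 20 genes (42.7% of all genes) and lowered 51 (39.4%), which was 28 and 41 with RLE factors, 12 and 60 with library totals and 6 and 65 on log2(TPM + 1). Of the 20 higher calls 10 turned negative under at least 1 other scaling, and of the 51 lower calls 4 turned positive. MRPL18 had 761.6, 745.3 and 756.5 TPM with arsenite at 24 h, against 118.6, 124.1 and 116.7 TPM in untreated Parental wells, with an average log2 fold change of 1.95 ± 0.02 (adjusted p = 7e-86). MRPS6 (0.99, adjusted p = 1.2e-50) and MRPS18C (0.70, adjusted p = 5.7e-40) followed. MRPL16 had 3.57, 3.91 and 8.41 TPM with arsenite at 24 h, against 47.3, 52.9 and 47.1 TPM, with an average of -1.99 ± 0.05 (adjusted p = 1.4e-59). The last of these wells, from the library that stood apart, was the highest and still far below the untreated wells. MRPS26 (-1.97, adjusted p = 2e-60) and MRPL34 (-1.78, adjusted p = 2.6e-48) fell alongside.

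**Figure D5:**
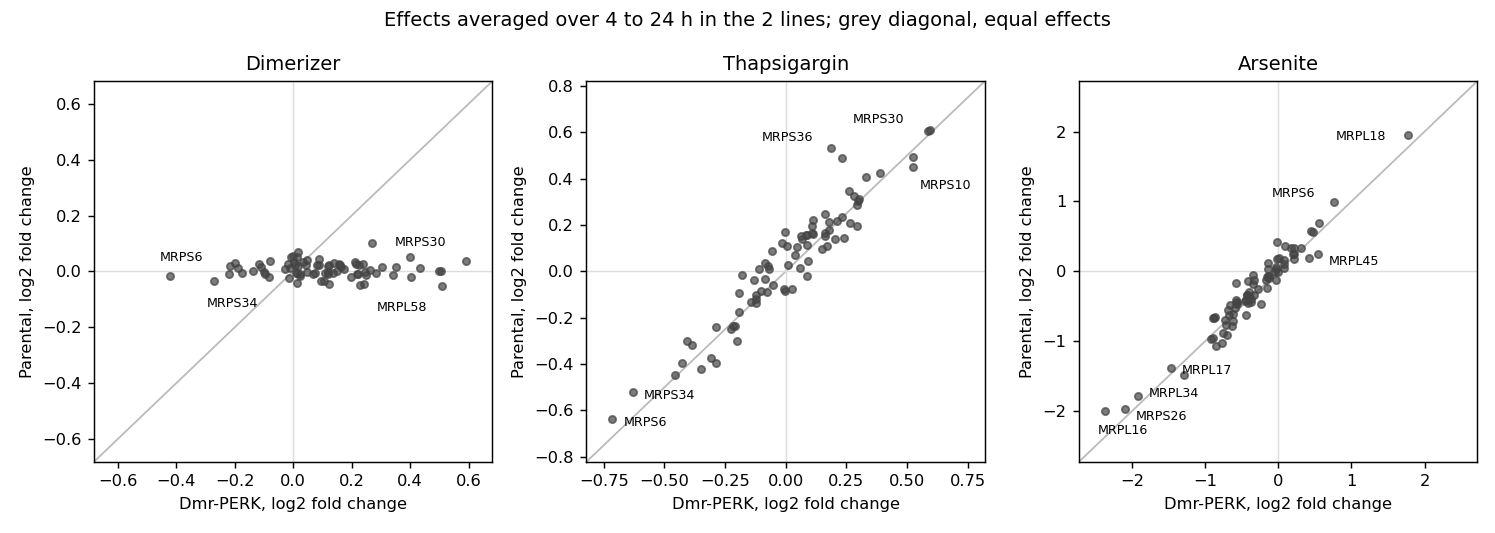
Effects averaged over 4 to 24 h (log2 fold change against untreated wells) in Dmr-PERK cells (x axis) and Parental cells (y axis), one point per gene, for dimerizer, thapsigargin and arsenite; the grey diagonal marks equal effects. With dimerizer the points spread along the Dmr-PERK axis alone, and with thapsigargin and arsenite they lie near the diagonal, with MRPL18 at 1.77 and 1.95 under arsenite.

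Between the lines, 16 genes were higher with arsenite in both (of 17 in Dmr-PERK and 20 in Parental cells) and 50 lower in both (of 53 and 51). The overlap over all genes was not counted. Of all genes 44.4% rose and 39.2% fell in Dmr-PERK cells, and 42.7% and 39.4% in Parental cells. MRPL52 was called in opposite directions, at -0.14 in Dmr-PERK and 0.11 in Parental cells, but the Parental value turned to -0.07 with library totals. The difference between the lines was called higher in Dmr-PERK cells for 11 genes (23.5% of all genes) and lower for 27 (18.7%). It was 18 and 20 without Parental arsenite 24 h replicate 3 and 19 and 17 on log2(TPM + 1). MRPL45 (0.30, adjusted p = 8.6e-11), MRPS14 (0.24, adjusted p = 0.00078) and MRPL3 (0.24, adjusted p = 3.4e-12) lay higher in Dmr-PERK cells. MRPS36 (-0.44, adjusted p = 1.2e-09), MRPL36 (-0.41, adjusted p = 1.3e-10) and MRPL16 (-0.38, adjusted p = 3.2e-05) lay lower.

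The treatments were also set directly against each other in Dmr-PERK cells, at the same times and without the untreated wells. Dimerizer against thapsigargin gave 43 genes higher (27.4% of all genes) and 8 lower (20.7%), which was 29 and 13 on log2(TPM + 1). MRPS34 (0.36, adjusted p = 8e-15), MRPL34 (0.35, adjusted p = 2.1e-10) and MRPL12 (0.31, adjusted p = 4.6e-11) were higher with dimerizer. MRPS14 (-0.30, adjusted p = 4.6e-12), MRPL49 (-0.27, adjusted p = 5.3e-22) and MRPL52 (-0.19, adjusted p = 1.2e-07) were lower with dimerizer. Dimerizer against arsenite gave 59 higher (38.4%) and 14 lower (45.3%), or 67 and 5 on log2(TPM + 1). Thapsigargin against arsenite gave 56 higher (37.6%) and 14 lower (46.1%), or 47 and 22 with RLE factors and 69 and 7 on log2(TPM + 1). MRPL16 and MRPS26 differed most in both, by 2.18 and 2.17 for dimerizer against arsenite and by 1.94 and 1.97 for thapsigargin against arsenite. MRPL18 (-1.85 and -1.84) and MRPS6 (-1.18 and -1.47) differed most the other way.

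Untreated Dmr-PERK and Parental cells already differed in these genes. Over the 5 times, 48 genes were higher in Dmr-PERK cells (30.3% of all genes) and 18 lower (32.2%), with a median log2 fold change of 0.15. MRPL40, a large-subunit protein found in mitochondria only, had 78.5 to 100.8 TPM (median 92.2) in untreated Dmr-PERK wells, against 51.1 to 70.2 TPM (median 62.7) in untreated Parental wells, n = 15 each. The ranges did not meet, and the log2 fold change was 0.61 (adjusted p = 2.2e-39). MRPL24 (0.48, adjusted p = 6.4e-30) and MRPL15 (0.46, adjusted p = 1.7e-33) were higher as well. MRPL57, a large-subunit protein found in mitochondria only, had 7.33 to 10.6 TPM (median 8.26) in untreated Dmr-PERK wells, against 13.2 to 18.3 TPM (median 16.6) in untreated Parental wells, again without overlap. MRPL57 (-0.96, adjusted p = 2.7e-42), MRPS31 (-0.60, adjusted p = 5.3e-25) and MRPL44, which has a fold like that of RNase III (-0.47, adjusted p = 5.7e-27), were lower. Between 24 h and 0 h without treatment, 15 genes rose (14.4%) and 4 fell (16.7%) in Dmr-PERK cells, or 35 and 0 with library totals and 24 and 2 on log2(TPM + 1). In Parental cells 19 rose (16.4%) and 0 fell (16.8%) by edgeR's test, 0 also by DESeq2. By edgeR's test 23 had an unadjusted p under 0.05 in either direction, against 10897 of all 26998 genes. Without replicate 1 of every group the rises were 8 in Dmr-PERK and 11 in Parental cells, and without replicate 2 they were 11 and 10.

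The 3 MRPS18 genes are paralogs whose products take different places: MRPS18A sits in the large subunit, and MRPS18B and MRPS18C sit in the small one. All rose with dimerizer in Dmr-PERK cells, by 0.22, 0.26 and 0.24 on the log2 scale, and with thapsigargin, by 0.11, 0.30 and 0.29. With arsenite MRPS18B fell by 0.58, MRPS18C rose by 0.56, and MRPS18A stood at 0.08 with TMM and -0.11 with library totals. At 24 h MRPS18B had 32.5, 30.5 and 32.6 TPM with arsenite, against 63.2, 59.0 and 59.4 TPM in untreated wells, and MRPS18A had 49.4, 53.1 and 53.1 TPM, against 62.4, 62.9 and 65.6 TPM. In TPM, MRPS18A and MRPS18B were thus below their untreated wells and MRPS18C above them.

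Several genes share bases with neighbours, and no source used here states whether the counting took strand into account. Exons of 29 of the genes overlap a gene on the opposite strand and 12 overlap a coding gene on the same strand. MRPL49 lies opposite FAU, with a mean of 714 TPM, and SYVN1, with a mean of 54.2 TPM. SYVN1 is an endoplasmic reticulum ubiquitin ligase gene of the unfolded protein response. MRPL49 had log2 fold changes of 0.02 with dimerizer (adjusted p = 0.39), 0.29 with thapsigargin and -0.92 with arsenite, and SYVN1 had 0.07, 2.23 and -1.10. FAU had 0.05 (not called), 0.22 and -0.01 (not called). MRPS14 lies opposite CACYBP, which had -0.37, -0.53 and 1.94, while MRPS14 had 0.03 (adjusted p = 0.51), 0.33 and -0.77. MRPS6 shares its strand with SLC5A3, a myo-inositol transporter gene, which had -1.18, -1.54 and -1.22, while MRPS6 had -0.42, -0.71 and 0.76. How far reads of the neighbours entered these counts was not tested. Of 73 pseudogenes of the family in the table, 4 had a mean of at least 1 TPM, the highest being MRPS31P4 at 3.96 TPM and MRPS31P5 at 3.31 TPM, so the values of MRPS31 are less certain.

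By place in the ribosome, both subunits held more rises than falls with dimerizer, for which 27.5% of all genes were higher and 27.7% lower. Of the 16 small-subunit proteins with a bacterial counterpart 10 rose and 3 fell, and of the 10 found in mitochondria only 8 rose and 1 fell. In the large subunit, 14 of 29 proteins with a bacterial counterpart rose and 7 fell, and 10 of 21 found in mitochondria only rose and 3 fell. MRPL55, which fell with arsenite, and MRPS36 are in none of these lists. Thapsigargin gave 9 higher and 5 lower, 6 and 2, 10 and 15, and 10 and 8 in these lists, in the same order, with 30.9% of all genes higher and 32.2% lower. Arsenite gave 4 and 10, 2 and 8, 5 and 20, and 6 and 14, with 44.4% of all genes higher and 39.2% lower. Of the 5 mitochondrial ribosome proteins without an MRP symbol, DAP3 rose with dimerizer (0.31 ± 0.02), while CHCHD1 (-0.08, adjusted p = 0.052) and AURKAIP1 (-0.08, adjusted p = 0.072) were not called. No list was tested as a set.

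Gene structure was described by 3 measures, the number of exons, the transcript length and the length of the gene. It covered the 77 genes whose ID and version matched GENCODE 29, as a description across genes of the same libraries. The number of exons and the dimerizer effect had a Spearman rho of 0.464, against 0.077 over 14639 coding genes. With the genes ranked by exons, the median log2 fold change was 0.01 for the lowest 26 (2 to 4 exons). It was 0.09 for the middle 25 (4 to 6) and 0.16 for the highest 26 (6 to 12). Genes with 4 exons, and those with 6, were thus divided between neighbouring groups. For arsenite, the length of the gene and the effect had a rho of 0.425 for Dmr-PERK and 0.346 for Parental cells, against 0.056 and 0.004 over coding genes. The 26 shortest genes had a median of -0.57 with arsenite in Dmr-PERK cells and the 26 longest -0.08. The length of the gene had a rho of 0.046 with the dimerizer effect and 0.044 with the thapsigargin effect. The number of exons had a rho of 0.373 with thapsigargin, 0.336 with arsenite in Dmr-PERK cells and 0.228 with arsenite in Parental cells. Transcript length had a rho of 0.282 with dimerizer and 0.293 with thapsigargin, and of -0.177 and -0.214 with arsenite in the Dmr-PERK and Parental lines.

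The genes that build and serve the ribosome moved with dimerizer as well. Of all genes tested, 27.5% rose and 27.7% fell with it. Of 26 genes for ribosome assembly and rRNA modification 22 rose and the other 4 were not called, among them NSUN4, an rRNA methyltransferase (0.80 ± 0.03), GTPBP10 (0.58 ± 0.02), an assembly GTPase, and NGRN (0.48 ± 0.02). Of 15 mitochondrial translation factors 9 rose and the other 6 were not called, among them the initiation factor MTIF2 (0.62 ± 0.02), TACO1 (0.58 ± 0.04), the activator of COX1 translation, and the recycling factor MRRF (0.38 ± 0.03). Of 17 mitochondrial aminoacyl-tRNA synthetases 8 rose and 6 fell, and MARS2 rose by 0.80 ± 0.04. With arsenite, 4 assembly genes rose and 22 fell, and 2 synthetases rose and 13 fell, where 44.4% of all genes rose and 39.2% fell. These list counts come from the TMM fit, and other scalings were not looked at for them. Among the mitochondrial chaperones and proteases, the 3 genes with the smallest adjusted p rose with dimerizer. They were LONP1, a matrix protease (0.98 ± 0.02), DNAJA3, a matrix co-chaperone (0.94 ± 0.02), and HSPA9, the matrix HSP70 (0.60 ± 0.02). The rest of that list is not described here.

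The RNAs made inside mitochondria were lower. Of the 15 RNAs of the mitochondrial genome tested, 13 fell with dimerizer, 15 with thapsigargin and 13 with arsenite in Dmr-PERK cells, and the rest were not called. MT-RNR1, the small ribosomal RNA, fell by 0.33 with dimerizer on the log2 scale, MT-ND6 by 0.34 and MT-ND3 by 0.31. In Parental cells 8 rose and 5 fell with arsenite, where 42.7% of all genes were higher and 39.4% lower. The arsenite effect was lower in Dmr-PERK cells for 15 of 15, against 18.7% of all genes. Counts in this paragraph come from the TMM fit of all libraries, and other scalings were not looked at. Replicate 3 of Parental arsenite at 24 h and of Dmr-PERK arsenite at 4 h, both lower in these RNAs than their groups, stayed in. For the cytosolic ribosome, of 86 cytosolic ribosomal protein genes 44 rose and 14 fell with dimerizer, 17 rose and 47 fell with thapsigargin, and 21 rose and 35 fell with arsenite. The shares of all genes higher and lower were 27.5% and 27.7% with dimerizer, 30.9% and 32.2% with thapsigargin, and 44.4% and 39.2% with arsenite. With arsenite in Parental cells 69 of the 86 rose and 5 fell, where 42.7% of all genes were higher and 39.4% lower. At 2 h of dimerizer 49 of them fell (9.13% of all genes), and at 24 h 76 rose (25%) and 4 fell (23.1%) in Dmr-PERK cells. Among 11 genes for mitochondrial transcription and its nuclear regulators 8 rose with dimerizer and 1 fell, with MYC (1.69 ± 0.03), ESRRA (0.57 ± 0.03) and PPRC1 (0.44 ± 0.02) highest.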

How the data were processed

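A strand-specific kit was used to sequence RNA of 120 U2OS wells. Per the submitters' processing notes, reads were checked with FastQC 0.11.5 and quantified with Salmon 0.9.1 on GRCh38; the annotation and any use of strand are not given in the sources used here. The deposited tables hold the authors' estimated counts per gene and the authors' TPM values for 57665 genes. Of the counts above 0, 49.48% were whole within 1e-05. In the deposited TPM table a count of 0 stands at 0.063122 TPM.

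Estimated counts were rounded and fitted with edgeR 4.0.16 in R 4.3.3 (quasi-likelihood test, TMM scaling, filterByExpr with a minimum count of 10): 26998 genes, 120 libraries, 40 groups, Benjamini-Hochberg adjustment over all genes, calls at an adjusted p under 0.05. Effects were averaged over 4, 8, 16 and 24 h, and 2 h was set against 0 h. One fit gives all groups a shared spread (80 residual degrees of freedom). On simulated data of the dimerizer comparison with 26998 genes, 34%, 92%, 98% and 100% of 50 genes changed by 1.1-, 1.25-, 1.5- and 2-fold were called. The changed genes all had a mean count over 50 and kept the same fold from 4 to 24 h. Every gene was drawn with the same fixed dispersion. These rates therefore do not cover genes with lower counts or effects that change with time. Alternatives were DESeq2 1.42.0, RLE factors, library totals alone, no filter, only the groups compared, a replicate block, limma 3.58.1 on log2(TPM + 1) or log2(TPM + 0.1) of 20476 genes, and leaving out replicates or libraries.

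The genes and lists were chosen with earlier results of these data known. Genes named per treatment of Dmr-PERK cells were the 4 with the largest called rise and the 4 with the largest called fall that kept one direction at 4 to 24 h; for Parental cells and other contrasts 3 each way; the 3 with the smallest adjusted p per test of change over time; per gene list the 3 with the smallest adjusted p; the 3 highest and lowest levels; and a fixed panel of paralogs and unusual members. Genes named for overlaps with neighbours, MRPL24, MRPL3, MRPS35, MRPL15, MRPL51, MRPL52, MRPS14, MRPL49 and MRPL57 under single treatments, MRPS27, MRPL18, MRPL44 and MRPS5 in Parental cells at 4 h, MRPS18C under arsenite and the values of MRPS34 over time were added after their values were seen. The gene ID of MRPL28, with its version, had no match in the GENCODE 29 annotation used, so MRPL28 was left out of the overlaps and gene structure. None of 72 pairs of same-numbered wells had deviations correlated above 0.1, a limit that cannot exclude a weak pairing. In 28 of the 72 the best match had the same number. These include every well of Dmr-PERK dimerizer, Dmr-PERK arsenite and Parental thapsigargin at 24 h, but no Dmr-PERK well at 4 h. One gene of the synthetase list that the rule names is not reported here.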

Additional observations from a re-analysis of the deposited data

Results flagged for a closer look

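The effect of a treatment differed between the lines, by a test of the difference itself in the edgeR fit, for the 17 results below, each given as the log2 effect in Dmr-PERK minus that in Parental cells, averaged over 4 to 24 h. For dimerizer the differences were 0.56 for MRPL58, 0.55 for MRPS30 and 0.51 for MRPS10, and -0.40 for MRPS6, -0.24 for MRPS34 and -0.23 for MRPL33. For thapsigargin they were 0.10 for MRPL49 and 0.0753 for MRPS10, and -0.35 for MRPS36, -0.26 for MRPS31 and -0.17 for MRPS21. For arsenite they were 0.30 for MRPL45, 0.24 for MRPS14 and 0.24 for MRPL3, and -0.44 for MRPS36, -0.41 for MRPL36 and -0.38 for MRPL16. MRPS36 is the only gene named for both thapsigargin and arsenite on the lower side. Samples far from their group were not looked for by a test, since every group held 3 wells.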

How the results depend on the processing

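The replicate block moved no count by over 1.5 times. With it, dimerizer gave 42 higher and 14 lower, thapsigargin 35 and 30, and arsenite 17 and 53 in Dmr-PERK cells. Thapsigargin gave 36 and 30 without it. Same-numbered wells had a median correlation of 0.002 over 72 pairs, which cannot exclude a weak pairing. Numbers below count the 78 genes. Against untreated 4 h wells, 2 h of dimerizer and arsenite called 59 and 44. DESeq2 and RLE factors each gave 22 lower for thapsigargin against arsenite. With library totals only, higher counts were 8 for arsenite in Dmr-PERK and 12 in Parental cells, 7 for the thapsigargin difference between lines, and 35 and 32 for 24 h against 0 h in untreated Dmr-PERK and Parental cells; lower counts were 6 for that thapsigargin difference, 8 and 9 for dimerizer and thapsigargin against arsenite, and 0 for untreated Dmr-PERK cells. With limma on log2(TPM + 0.1), higher counts were 8, 6, 5, 19 and 24 for arsenite in Dmr-PERK and Parental cells, the thapsigargin and arsenite differences between lines and untreated Dmr-PERK cells over time; 14, 35 and 33 were called for dimerizer at 2 h and thapsigargin at 2 and 4 h; lower counts were 5, 17, 13, 5, 7 and 1 for the thapsigargin and arsenite differences, dimerizer against thapsigargin, dimerizer and thapsigargin against arsenite, and untreated Dmr-PERK cells. With log2(TPM + 1) these stood except for 15 at 2 h of dimerizer, 6 higher for the thapsigargin difference and 2 lower in untreated Dmr-PERK cells; without a filter, log2(TPM + 1) gave 27 higher for dimerizer against thapsigargin, 9, 18, 29 and 29 called for dimerizer and thapsigargin at 2 and 4 h, 33 for the change of the dimerizer effect over time, and 4, 15, 4, 7 and 1 lower for the same lists as before less dimerizer against thapsigargin. No filter on low counts gave 5 higher and 5 lower for the thapsigargin difference and 1 lower for untreated Dmr-PERK cells. Fitting only the groups compared gave 5 and 6 higher for the thapsigargin and arsenite differences and 1 lower for untreated Parental cells. Without Parental arsenite 24 h replicate 3, the thapsigargin difference had 5 higher and 16 lower, the arsenite difference 18 higher and untreated Parental cells 2 lower; without it and Dmr-PERK arsenite 4 h replicate 3 (chosen after seeing the data), these were 5 and 18 for the thapsigargin difference, 23 higher for untreated Dmr-PERK and 3 lower for untreated Parental cells. Leaving out each replicate number in turn gave 7 to 31, 11 to 27 and 17 to 25 called for dimerizer at 2, 4 and 8 h, 7 to 24 for arsenite at 2 h, 38 to 61 for the dimerizer change over time, 5 to 8 lower for dimerizer against thapsigargin, 0 to 6 and 4 to 14 higher for the thapsigargin and arsenite differences, 10 to 22 higher for untreated Parental and 8 to 14 higher and 0 to 4 lower for untreated Dmr-PERK cells. For single genes the sign turned under arsenite: in Dmr-PERK cells MRPL33 to 0.11 with DESeq2 and RLE factors, MRPL58 to 0.0692 and 0.0696, MRPS36 to 0.0922 and 0.0913, and MRPS18A to -0.11 with library totals and -0.15 with limma; in Parental cells MRPL52 to -0.0715 with library totals and -0.12 with limma, and MRPL45 to -0.0522 with log2(TPM + 1) and -0.0534 with log2(TPM + 0.1). The cause was not tested. Of the values of single named genes, 2093 kept direction and side of the threshold, 18 passed it, 70 no longer did and 17 turned sign; a limit of 5 TPM would leave all 78 genes. At 1.1-fold the simulated recovery was 34%, with far fewer genes changed than in the data, so the recovery of the smallest folds here is not known.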
